A study of Mus musculus with 8 samples.

Results

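The Hox genes of the mouse lie in 4 clusters, named Hoxa to Hoxd, and encode homeodomain transcription factors. All protein-coding genes named Hoxa, Hoxb, Hoxc or Hoxd followed by a number were taken as members, which gave 39 of the 21887 protein-coding genes of the RefSeq table for mouse assembly GRCm38.p6 (the assembly of build mm10) on numbered chromosomes, X and Y. The members were 11 Hoxa, 10 Hoxb, 9 Hoxc and 9 Hoxd genes. The order of the genes along a cluster follows the order of their expression along the body axis: low-numbered (anterior) paralogues act in the hindbrain and neck, high-numbered (posterior) paralogues in the trunk, limbs and tail. Polycomb complexes keep Hox clusters silent and trithorax complexes, which methylate histone H3 at lysine 4, keep them active, while retinoic acid activates the anterior genes first. The otic placode, from which the inner ear and its neurons arise, forms beside the hindbrain, where anterior Hox genes set segment identity.

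CUT&Tag was used, an assay in which a transposase is tethered to an antibody and inserts adapters into the DNA near the protein or histone mark that the antibody binds. The antibodies were against CHD4, the remodelling motor of the NuRD complex, which also removes histone acetylation, H3K4me3, a histone mark of active and poised promoters, and p300, an acetyltransferase of enhancers and promoters. All cells were of 1 mouse line, iMOPs (immortalized multipotent otic progenitors), with a wild-type genotype and no treatment given in the labels. Each library was made from 500000 cells. The proliferating group was grown with 20 ng/ml bFGF, a growth factor, and the neuron group was cells of the same line differentiated in Neurobasal medium with 1 µM K03861, an inhibitor of the kinase CDK2. There was 1 library for each of the 3 antibodies in each state, and 1 deposited peak list for each of these 6 libraries. The lists held 4919 CHD4, 7472 H3K4me3 and 3144 p300 peaks for proliferating cells, and 4599, 5625 and 965 for neurons. The IgG libraries, 1 per state, were not analysed here. The names of the lists hold the word merged, and whether a list pools several libraries is not given. Since every group is a single labelled library with 1 list, states were compared without replicates and no test could be made. Read depth is unknown, so a site missing from a list may fall below that list's threshold, and a mark on fewer cells cannot be told apart from less of it per cell.

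The labelled cell types were checked against marker genes. A gene was counted as carrying a peak when the peak touched the 1 kb either side of an annotated gene end, which is the rule used throughout unless another is named. H3K4me3 lay at 5 of 7 progenitor markers in proliferating cells (among them Sox2, Id1, Eya1 and Ccnd1) and at 2 of these, Sox2 and Id1, in neurons, while Pax2 and Gata3 had none in either state. Of 7 neuron markers, Tubb3 and Map2 carried H3K4me3 in both states and the other 5 in neither, so the mark did not set the neuron group apart by these genes. None of 4 hair cell, 4 glial or 4 liver markers had H3K4me3 in either state. The mark lay at 2 of 4 mesenchyme markers in both states (Tbx18 and Pou3f4) and at 1 of 4 blood markers, Cd68, in proliferating cells.

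Promoter sequences were available for 22 of the 39 Hox genes in the RefSeq promoter table of GRCm38.p6. The 250 bases upstream of the start are shown for 5 genes, with every CG pair in capitals, because H3K4me3 usually sits on promoters rich in CG pairs. Hoxa5 and Hoxa3 had an H3K4me3 peak over the start, Hoxa5 in both states and Hoxa3 in proliferating cells. No peak of any list lay within 1 kb of the starts of Hoxa6, Hoxa13 and Hoxd13, although their upstream sequences also hold many CG pairs. Of the genes shown, Hoxa5 acts in lung and airway development, Hoxa3 in the thymus and parathyroid, and Hoxa13 and Hoxd13 in digits and the genital tract. All are on the minus strand except Hoxd13, which is on the plus strand, and each is written from 5′ to 3′ along its gene. The Hoxa5 stretch (chr6:52204588-52204837) holds 28 CG pairs, that of Hoxa3 (chr6:52213068-52213317) 18, that of Hoxa6 (chr6:52208673-52208922) 24, that of Hoxa13 (chr6:52260881-52261130) 35 and that of Hoxd13 (chr2:74667975-74668224) 31.
Hoxa5: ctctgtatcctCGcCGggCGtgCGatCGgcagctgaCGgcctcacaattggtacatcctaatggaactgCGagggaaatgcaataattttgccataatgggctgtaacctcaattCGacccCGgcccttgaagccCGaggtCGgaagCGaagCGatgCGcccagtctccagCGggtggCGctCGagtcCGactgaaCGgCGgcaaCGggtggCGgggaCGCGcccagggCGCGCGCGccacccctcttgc
Hoxa3: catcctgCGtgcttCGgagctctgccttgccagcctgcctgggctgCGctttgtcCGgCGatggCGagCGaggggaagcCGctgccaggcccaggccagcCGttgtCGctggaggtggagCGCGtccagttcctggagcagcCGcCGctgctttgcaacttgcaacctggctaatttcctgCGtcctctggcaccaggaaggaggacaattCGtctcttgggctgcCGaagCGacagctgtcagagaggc
Hoxa6: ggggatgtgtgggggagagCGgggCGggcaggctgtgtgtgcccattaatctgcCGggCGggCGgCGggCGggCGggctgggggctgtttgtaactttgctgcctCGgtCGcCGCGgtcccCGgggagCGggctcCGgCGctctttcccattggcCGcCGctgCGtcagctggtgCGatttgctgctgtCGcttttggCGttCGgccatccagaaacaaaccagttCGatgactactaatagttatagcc
Hoxa13: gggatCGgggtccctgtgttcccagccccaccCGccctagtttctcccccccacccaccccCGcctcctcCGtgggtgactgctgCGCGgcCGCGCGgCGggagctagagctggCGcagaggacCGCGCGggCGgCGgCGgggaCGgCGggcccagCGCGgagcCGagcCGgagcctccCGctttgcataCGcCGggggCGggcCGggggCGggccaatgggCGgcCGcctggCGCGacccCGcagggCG
Hoxd13: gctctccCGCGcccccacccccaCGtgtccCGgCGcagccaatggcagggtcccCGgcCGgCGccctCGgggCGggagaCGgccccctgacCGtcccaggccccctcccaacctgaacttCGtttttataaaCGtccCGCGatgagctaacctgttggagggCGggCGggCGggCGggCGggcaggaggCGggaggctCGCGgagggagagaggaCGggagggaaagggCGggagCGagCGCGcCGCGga

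Peaks at Hox genes were confined, in all 6 lists, to the anterior and central part of the Hoxa cluster. A peak of at least 1 list was carried by 6 of 39 Hox genes, among them Hoxa2, Hoxa3, Hoxa4, Hoxa5 and Hoxa6, where 40.8% of all protein-coding genes carried one. The 6 genes are all neighbours in 1 cluster and share peaks, so they are not 6 independent sites. The exact (Clopper-Pearson) 95% intervals given with shares treat genes as independent and cover counting error only.

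H3K4me3 lay at 6 Hox genes in proliferating cells, Hoxa2 to Hoxa6 among them, which is 15.4% of the Hox genes (95% interval 5.86% to 30.5%), against 37.6% of all protein-coding genes. In neurons it lay at the same genes without Hoxa3, which is 5 genes or 12.8% (4.30% to 27.4%), against 30.0%. Both Hox shares were below the share of all genes, and in neurons and in proliferating cells the upper bound of the interval was below it too. CHD4 lay at 1 Hox gene in proliferating cells, 2.56% (0.0649% to 13.5%) of Hox genes against 11.8% of all genes. In neurons CHD4 lay at 2 Hox genes, Hoxa2 among them, 5.13% (0.627% to 17.3%) against 9.95%. The background shares lie inside both CHD4 intervals, and no Hox gene carried CHD4 when each list was reduced to the 50% of peaks with more total signal. No Hox gene carried p300 in either state (upper bound 9.03%), against 8.44% of all genes in proliferating cells and 1.24% in neurons, so a share of p300 like that of all genes was within the interval. The background share lay outside the Hox interval for H3K4me3 alone, and these intervals are too narrow to the extent that neighbouring Hox genes share peaks.

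As a comparison with other developmental homeobox genes, 40 genes of other homeobox families, Dlx, Irx, Lhx and Nkx among them, were counted in the same way. H3K4me3 lay at 11 of them in proliferating cells (27.5%) and at 8 in neurons (20.0%), inside the interval of the Hox share in each state. CHD4 lay at 4 and at 7 of the 40, and p300 at 4 and at 1; the 7 with CHD4 in neurons (17.5%) and the 4 with p300 in proliferating cells (10%) were just above the Hox intervals. The lower H3K4me3 share of the Hox genes was thus not separable from that of these homeobox genes at this number of genes.

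**Figure D1:**
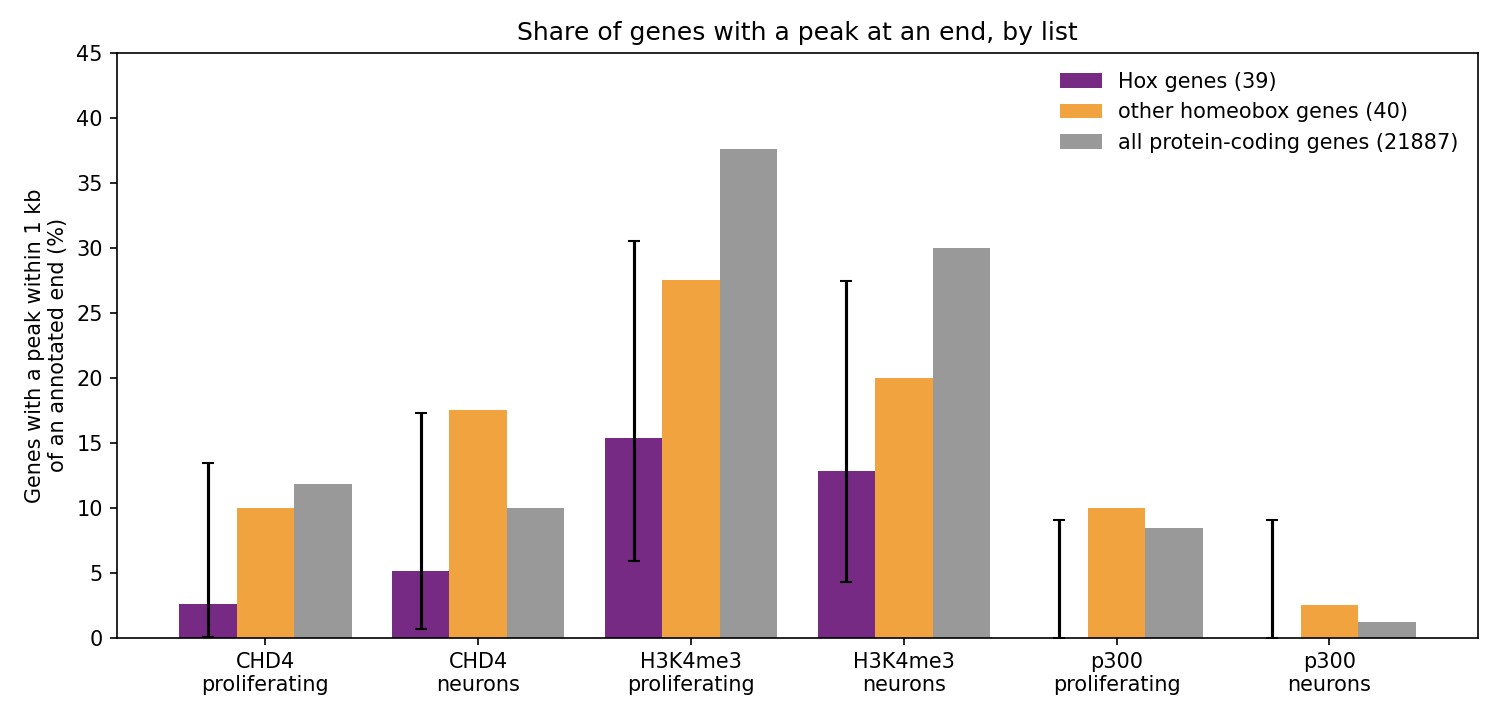
Share of genes with a peak within 1 kb of an annotated end, in percent, for each of the 6 lists. Purple bars are the 39 Hox genes with exact 95% intervals, orange bars the 40 other homeobox genes and grey bars all 21887 protein-coding genes, both drawn without intervals; the 2 H3K4me3 intervals of the Hox genes end below the grey bars.

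By position in the cluster, 3 of 8 anterior Hox genes (paralogues 1 to 3) carried a peak of any list, as did 3 of 15 central genes (4 to 8) and none of 16 posterior genes (9 to 13). Of all protein-coding genes 40.8% carried one, so the anterior count was near the background share. All marked Hox genes were in the Hoxa cluster, where Hoxa7 was the central gene without a peak. The order by position is thus that of 1 cluster. Hoxa9, Hoxa10, Hoxa11 and Hoxa13, which pattern the trunk, limbs and reproductive tract and of which Hoxa9 and Hoxa10 also act in blood progenitors, carried none.

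The boundary between marked and unmarked genes in the Hoxa cluster lay just before Hoxa7. The last peak of any list ended at position 52214450, which is 1.17 kb short of the nearer end of Hoxa7 and 46.4 kb from the far end of the cluster, beyond Hoxa13. In neurons the last peak ended further from Hoxa13, 55.4 kb from the far end. From the starts of Hoxa7, Hoxa9, Hoxa10, Hoxa11 and Hoxa13 the nearest H3K4me3 peak lay at 4.12 kb to 46.4 kb (median 26.4 kb) in proliferating cells. In neurons these distances ran from 13.1 kb to 55.4 kb (median 35.4 kb). No gene from Hoxa7 to Hoxa13 was thus marked in either state, and the last proliferating peak, at the start of Hoxa3, had no counterpart in neurons.

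**Figure D2:**
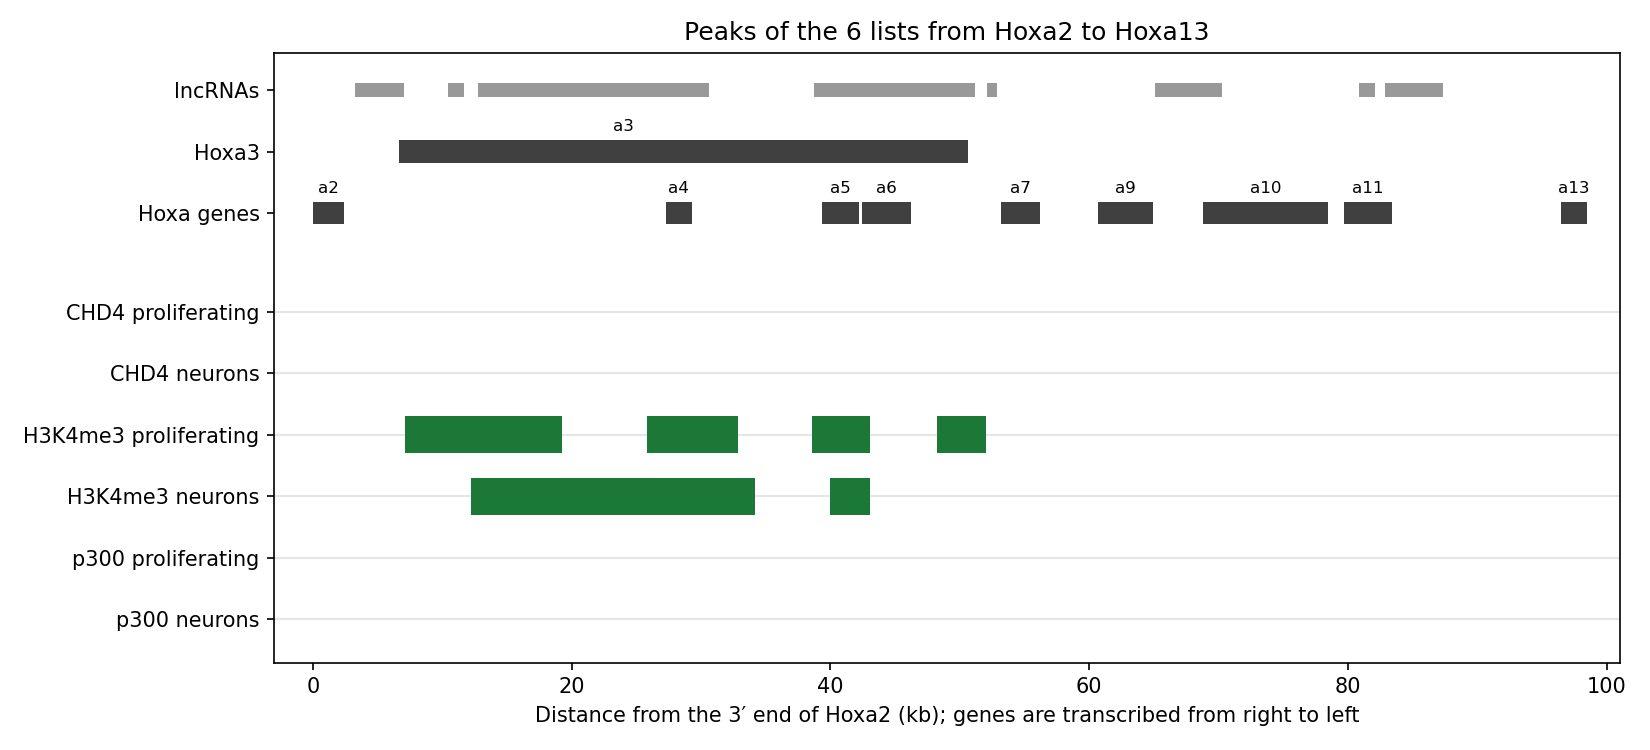
Map of the Hoxa cluster from Hoxa2 to Hoxa13, with distance from the 3′ end of Hoxa2 in kb on the horizontal axis. Dark bars are Hoxa genes, with Hoxa3 on its own line because it spans its neighbours. Light grey bars are lncRNAs, and coloured bars are the peaks of each list. The H3K4me3 peaks end near the start of Hoxa3, and no CHD4 or p300 peak lies between the 3′ end of Hoxa2 and Hoxa13. Peaks that begin before the 3′ end of Hoxa2 are not drawn, among them those that end within 1 kb of it.

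Hoxa2, which sets the identity of the second pharyngeal arch, carried no peak at its start or in its body. It counted as marked because peaks ended within 1 kb of its 3′ end, of H3K4me3 in both states and of CHD4 in neurons. Likewise Hoxa6 had H3K4me3 at its 3′ end, from the peak over Hoxa5, and not at its start. Counted at starts alone, with the strand of each cluster taken from the members in the promoter table, H3K4me3 lay at 4 Hox genes in proliferating cells, Hoxa3, Hoxa4 and Hoxa5 among them, and at 3 in neurons, Hoxa4 and Hoxa5 among them. CHD4 lay at 1 Hox start in each state.

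Hoxa3, which spans chr6:52169059-52213067 and contains Hoxa4, Hoxa5 and Hoxa6 within its annotated length, was the only Hox gene whose H3K4me3 call differed between the states. In proliferating cells a peak of 3800 bp, chr6:52210651-52214450, covered its start, at the 24.2nd percentile of total signal and the 1.58th of highest signal. No neuron peak lay there. A second proliferating peak, chr6:52169551-52181650, reached to within 1 kb of its 3′ end. Neurons had H3K4me3 inside the gene, but not within 1 kb of either end. Among all protein-coding genes, 8.21% had H3K4me3 in proliferating cells only, 29.4% in both states and 0.612% in neurons only, and for the Hox genes these counts were 1, 5 and 0 of 39. Of the genes with H3K4me3 in proliferating cells, 5 of 6 Hox genes (83.3%) and 78.1% of all 8224 genes also had it in neurons, so the loss of 1 gene was close to the background rate. The Hoxa3 call rests on weak peaks: when both H3K4me3 lists were trimmed by total signal to the length of the shorter one, Hoxa3 was in neither list, and Hoxa4 was called in neurons only.

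Hoxa4 carried H3K4me3 at its start in both states. In proliferating cells the peak over it, chr6:52188251-52195300, was 7050 bp wide and ranked at the 15.7th percentile of total signal. On the side towards the 3′ end of Hoxa3 lay the 12100 bp peak named above. It also covers the lncRNA genes Gm15050 and 5730596B20Rik and part of LOC115490409. In neurons 1 peak of 21950 bp, chr6:52174651-52196600, ran over the Hoxa4 region and over part of the 12100 bp region, whose stretch nearest the 3′ end of Hoxa3 it did not reach. The wide neuron peak thus overlapped 2 separate proliferating peaks and extended over the gap between them.

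These wide peaks stood out for width and for low signal per base pair. Of the 5625 neuron H3K4me3 peaks, 5 were at least 21950 bp wide, this one included, and 4 had a lower mean signal (total signal divided by width). Its total signal ranked at the 93.6th percentile and its highest signal at the 7.11th. Of the 7472 proliferating peaks, 77 were at least 12100 bp wide, again with this one included, and 1 had a lower mean signal than the Hoxa3 peak of that width. That peak ranked at the 13.4th percentile of total signal and the 2.35th of highest signal. The 7050 bp peak over Hoxa4 was alike, with 34 proliferating peaks lower in mean signal. The authors' peak list therefore describes this stretch as broad and low, unlike the peak over Hoxa5.

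**Figure D3:**
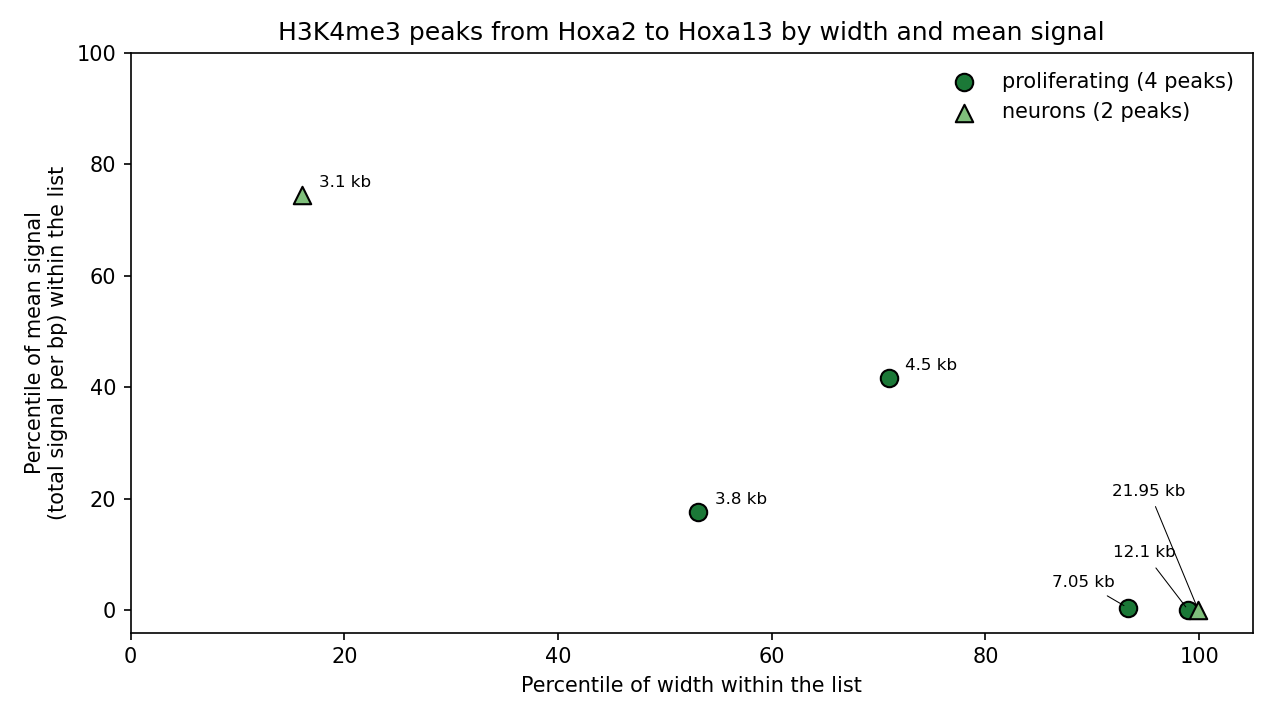
The H3K4me3 peaks from Hoxa2 to Hoxa13, 4 in proliferating cells (circles) and 2 in neurons (triangles), by percentile of width and percentile of mean signal within their own list. The 3 widest peaks, labelled 7.05, 12.1 and 21.95 kb, lie at the bottom right.

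Hoxa5 carried H3K4me3 over its start in both states. The peak was 4500 bp wide in proliferating cells (chr6:52201001-52205500) and 3100 bp wide in neurons (chr6:52202351-52205450). The proliferating peak stood at the 60.4th percentile of total signal and the 41.7th of mean signal in its list. The neuron peak stood at the 42.1st and the 74.5th. The peak also touches the non-coding gene Hoxaas3 and the near end of Hoxa6. The region of Hoxa5 was narrower in the neuron list. Widths and ranks from lists of different length and threshold cannot show whether the mark changed between the states.

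Over the whole Hoxa cluster of 106 kb, H3K4me3 peaks covered 33.2 kb (31.5%) in proliferating cells and 30.4 kb (28.8%) in neurons. The lists shared 22.5 kb, which is 67.8% of the proliferating and 74.0% of the neuron length. A further 10.7 kb was covered in proliferating cells alone and 7.90 kb in neurons alone. The same overlap over all H3K4me3 peaks is not given here, so these lengths cannot be read as particular to Hoxa. CHD4 covered 3.20 kb (3.03%) in proliferating cells and 5.65 kb (5.35%) in neurons, and p300 covered none in either state. Over all 4 clusters, which span 492 kb, H3K4me3 covered 6.75% and 6.18%, against 2.18% and 2.00% of the spans of all protein-coding genes. CHD4 covered 0.650% and 1.15% of the clusters, against 1.04% and 1.67%. The clusters thus held few marked genes but, through the Hoxa stretch, a larger covered share by H3K4me3 than gene spans as a whole. In proliferating cells this rested on weak peaks: with lists of equal length H3K4me3 covered 2.08% of the clusters and 1.77% of gene spans, against 6.18% and 2.00% in neurons. Gene spacing also differs. The clusters hold 39 genes in 492 kb, and the spans of all protein-coding genes hold 21887 genes in 1032 Mb. Gene ends thus lie closer together in the clusters, and the covered shares were not adjusted for this.

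The Hoxb, Hoxc and Hoxd clusters held no peak of any of the 6 lists, within their genes or between them. These comprise the 174 kb of Hoxb (chr11:96194316-96368254), the 116 kb of Hoxc (chr15:102921131-103036856) and the 96.9 kb of Hoxd (chr2:74668225-74765142). Their anterior members Hoxb1, Hoxb2, Hoxb3, Hoxd1 and Hoxd3, of which Hoxb1 sets the identity of a hindbrain segment, were unmarked like the rest. From the starts of these 28 genes the nearest H3K4me3 peak lay at 88.3 kb to 301 kb (median 218 kb) in proliferating cells and at 88.4 kb to 301 kb (median 217 kb) in neurons. For CHD4 these distances had a median of 221 kb in proliferating cells (67.3 kb to 847 kb) and 522 kb in neurons (67.3 kb to 736 kb). For p300 the medians were 437 kb (67.0 kb to 1035 kb) and 878 kb (115 kb to 3132 kb).

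Each of these clusters lay within a long stretch free of peaks of all 6 lists. The stretch around Hoxb was 698.6 kb long, that around Hoxc 458 kb and that around Hoxd 824 kb. Hoxa7 to Hoxa13 shared a stretch of 424 kb with Evx1, a homeobox gene next to the cluster. Among the 11577 stretches between neighbouring peaks, 771 were at least as long as that of Hoxb, 1135 as that of Hoxc, 656 as that of Hoxd and 1223 as that of Hoxa7 to Hoxa13. The lengths were therefore not rare. By the number of protein-coding genes inside, the Hoxb stretch held 13 (10 of them Hox), and 127 stretches held at least as many. Those of Hoxc and Hoxd held 11 each (9 of them Hox), a number reached by 154 stretches. For Hoxb, Hoxc and Hoxd alike, fewer stretches matched by number of genes than by length.

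**Figure D4:**
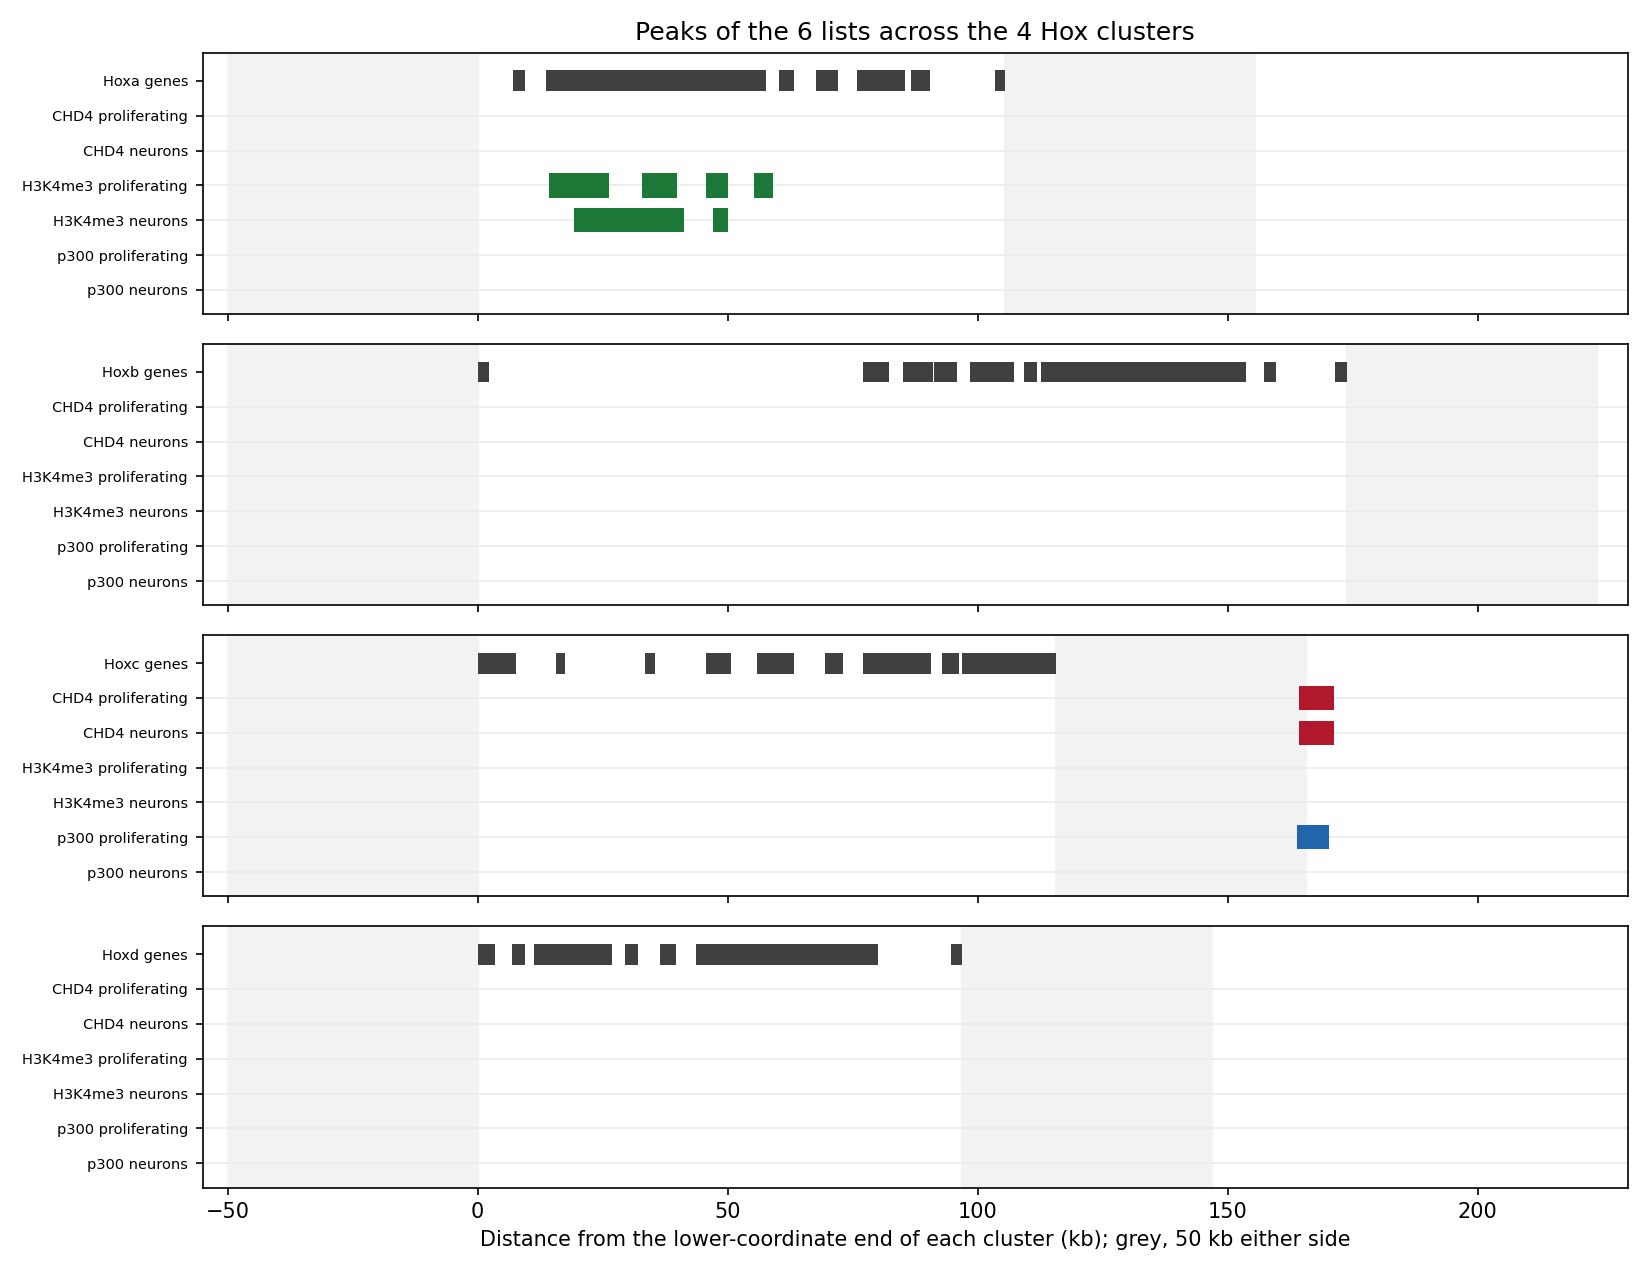
The 4 Hox clusters to the same scale, with distance from the lower-coordinate end in kb, 50 kb either side in grey, genes as dark bars and the peaks of each list as coloured bars, and with Hoxa drawn from Hoxa2 on. Peaks lie in the Hoxa cluster and at 1 site at the edge of the Hoxc flank.

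Outside the clusters, 1 site with peaks reached into the 50 kb either side, on the Hoxc4 side of the Hoxc cluster. Within the 50 kb lay 1456 bp of its CHD4 peak in each state and 1756 bp of its p300 peak, and the rest lay beyond. CHD4 lay there in both states, in peaks of 6950 bp (chr15:103085401-103092350) in proliferating cells and 7000 bp (chr15:103085401-103092400) in neurons. p300 lay there in proliferating cells only, in a peak of 6350 bp (chr15:103085101-103091450), and the neuron p300 list, which is the shortest of the 6, had none. The CHD4 peaks stood at the 83.3rd percentile of total signal in proliferating cells and the 89.7th in neurons, and at the 34.1st and the 57.3rd of highest signal. Per base pair the mean signal of the proliferating CHD4 peak, a wide one (92.0th percentile of width), ranked at the 32.6th percentile, and that of the neuron peak at the 82.2nd. The p300 peak ranked at the 53.6th percentile of total, the 13.1st of highest and the 5.96th of mean signal. With the p300 lists trimmed to equal length this p300 peak was lost, so the difference between the states ended. In proliferating cells CHD4 and p300 had their highest signal at the same 50 bp, 103090501 to 103090550, which lies beyond the 50 kb. No H3K4me3 peak lay at the site in either state, and the peaks touched no gene of the table. The CHD4 peaks began 48.5 kb past the end of Hoxc4 and lay 60.9 kb from Smug1, a DNA repair gene. Whether the site acts on a Hoxc gene cannot be read from these lists.

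The Hox starts in the promoter table were not poor in CG pairs. The table holds 9 of 11 Hoxa and 9 of 9 Hoxd genes, but 3 of 10 Hoxb and 1 of 9 Hoxc genes. The counts at these starts thus describe mainly Hoxa and Hoxd. Over the 24 starts of the 22 Hox genes in the promoter table, the 250 bases upstream held 2 to 35 CG pairs (median 12.5), against a median of 10 over 21263 starts of 17492 protein-coding genes. At least 10 pairs were found at 15 of the 24 Hox starts (62.5%), against 50.1% of all starts. Among all starts, the share with H3K4me3 within 1 kb went up with the number of pairs. It was 4.87% in proliferating cells and 3.33% in neurons for starts with 0 to 4 pairs, and 73.8% and 62.0% for starts with 20 or more.

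Most Hox starts of the promoter table that were rich in CG pairs lacked H3K4me3. Of the 15 with at least 10 pairs, 2 had H3K4me3 in proliferating cells (Hoxa3 and Hoxa5) and 1 in neurons (Hoxa5), where 64.7% and 52.2% of all such starts had it. Of the 8 with at least 20 pairs, 1 had it in each state, that of Hoxa5. The other 7 comprised the starts of Hoxa6, Hoxa13, Hoxd1, Hoxd10 and Hoxd13, and 1 of the 2 starts each of Hoxa10 and Hoxd11. Over starts of any CG content, 37.8% in proliferating cells and 30.1% in neurons had the mark. Hoxa4, marked at its start in both states, is not among these 22 genes, so the Hox counts here do not hold every marked member.

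**Figure D5:**
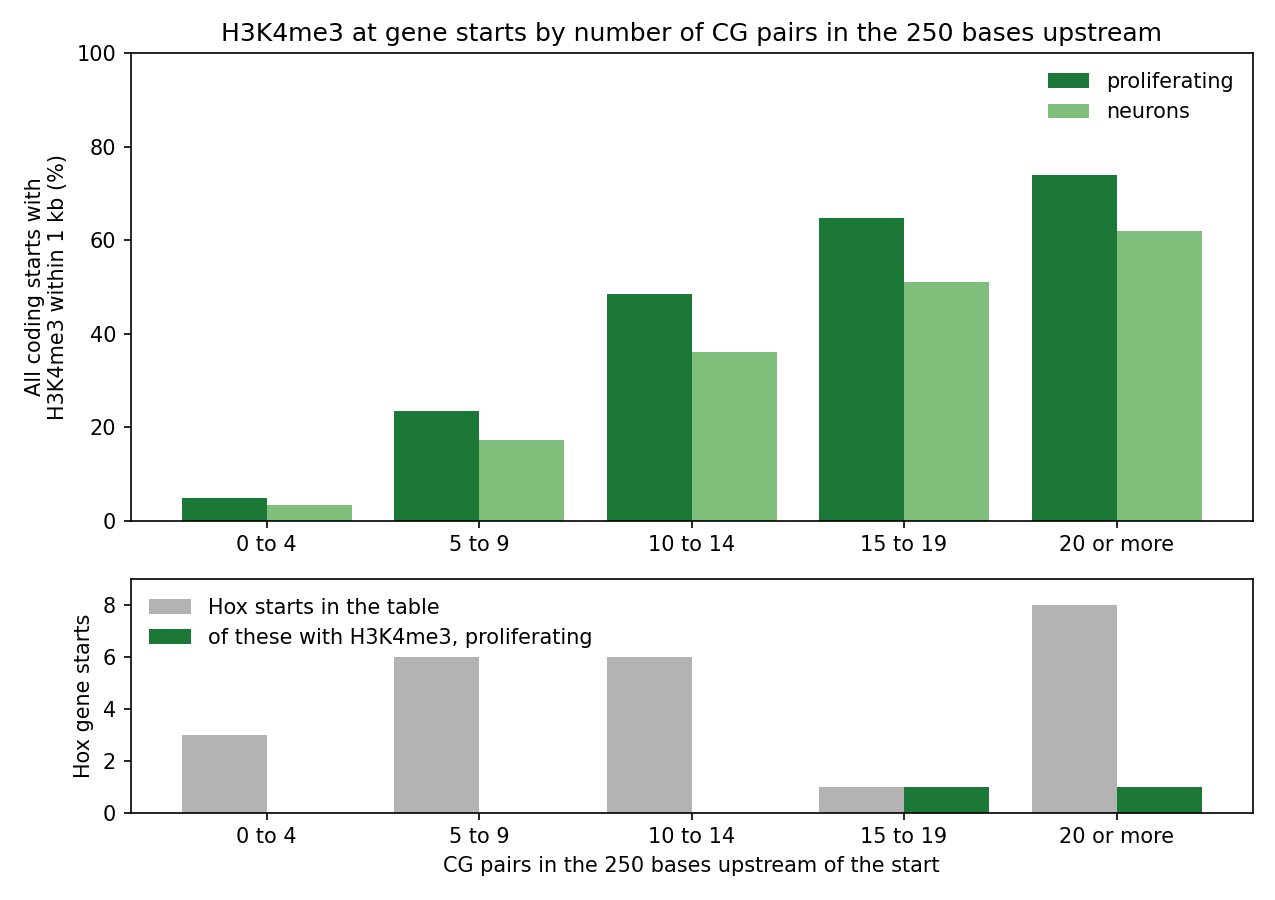
Upper panel, share of all 21263 starts of protein-coding genes with H3K4me3 within 1 kb, in percent, by number of CG pairs in the 250 bases upstream, for both states. Lower panel, number of the 24 Hox starts in each class (grey) and how many had H3K4me3 in proliferating cells (green), which were 1 start with 15 to 19 pairs and 1 with 20 or more.

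Peaks at the non-coding genes of the clusters also lay in the Hoxa cluster alone. These genes were counted when a peak touched any part of the gene, unlike the coding genes. No share over all non-coding genes is given here for comparison. The 4 spans hold 25 lncRNA genes, of which 6 touched an H3K4me3 peak in proliferating cells, 5 in neurons and 2 a CHD4 peak in each state. All of those were among the 11 lncRNA genes of the Hoxa cluster. Gm15050 was touched by H3K4me3 in proliferating cells only. The 6 microRNA genes, Mir196b, Mir196a-1, Mir10a, Mir196a-2, Mir615 and Mir10b touched no peak of any list.

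Genes that act with or on Hox proteins were then counted by lists chosen by function. Among 9 Hox cofactors (the Pbx, Meis and Pknox homeodomain proteins that bind DNA beside Hox proteins), H3K4me3 lay at 8 in proliferating cells and 6 in neurons, and CHD4 at 6 and 4. Meis1, Meis2 and Pbx3 carried both CHD4 and H3K4me3 in both states. Pknox2 carried CHD4 in proliferating cells only, Pbx4 and Pknox1 carried H3K4me3 in proliferating cells only, and Meis3 carried no peak. p300 lay at 3 of the 9 in proliferating cells and at none in neurons. Of all protein-coding genes, 37.6% carried H3K4me3 in proliferating cells and 30.0% in neurons, and 11.8% and 9.95% carried CHD4. For p300 these shares were 8.44% and 1.24%. Most cofactor genes thus carried H3K4me3, which most Hox genes and most protein-coding genes lacked.

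Among 30 Polycomb genes, which encode the complexes that silence Hox clusters, H3K4me3 lay at 20 in proliferating cells and 19 in neurons, and CHD4 at 8 and 7. Ezh2, the H3K27 methyltransferase, had CHD4 in proliferating cells only, as did Cbx6 and Phf1, while its paralogue Ezh1 and Phc2 had it in neurons only. Among 16 trithorax and H3K27 demethylase genes, which counteract silencing, H3K4me3 lay at 14 and 13, and CHD4 at 5 and 2. Kmt2a, Kmt2c and Kdm6a had CHD4 in proliferating cells only, and Kmt2b and Kdm6b in both states. Both lists had more H3K4me3 genes than the background shares of 37.6% and 30.0%. CHD4 lay at 26.7% and 23.3% of the Polycomb genes and at 31.25% and 12.5% of the other list. Of all protein-coding genes 11.8% and 9.95% carried CHD4.

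Upstream regulators of Hox genes mostly lacked H3K4me3, as did most protein-coding genes. The mark lay at 37.6% of all protein-coding genes in proliferating cells and at 30.0% in neurons. Of 17 retinoic acid pathway genes, 3 had H3K4me3 in proliferating cells and 2 in neurons, and these were among Rdh10, which makes retinaldehyde, and the receptors Rara and Rxrb. CHD4 lay at 3 of the 17 in each state (17.6%, against 11.8% and 9.95% of all genes), and p300 at 2 in proliferating cells and at none in neurons. Of 12 Cdx and hindbrain regulators, H3K4me3 lay at 3 in proliferating cells, namely Egr2 and Gbx2, which pattern the hindbrain, and the growth factor gene Gdf11, and at Gdf11 alone in neurons. No gene of this list carried CHD4 or p300 in either state. Of 19 genes next to the clusters, 9 carried H3K4me3 in proliferating cells (47.4%, against 37.6% of all genes). In neurons 4 carried it (21.1%, against 30.0%). The 9 included Skap2 and Hibadh, which lie on either side of the Hoxa cluster, itself marked in part. They also included Lnpk and Snx11, on the sides of unmarked clusters. In proliferating cells the Lnpk peak lay 88.3 kb from Hoxd and the Snx11 peak 408 kb from Hoxb, so the listed genes need not be close to a cluster. The share of this list was above that of all genes in proliferating cells and below it in neurons, so it did not set these genes apart.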

How the data were processed

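The deposited files are 6 peak lists without header in the layout of SEACR output, and their total and highest signal per peak are the values the authors deposited. Bowtie2, deepTools, SEACR and build mm10 are named per the submitters' processing notes. The names of the lists hold the word merged, but not what was merged. Versions, roles, thresholds, scaling of the signal and use of the IgG libraries are not given in the sources used here. Signal was therefore used only as a percentile within a list. All but 6 coordinates are multiples of 50 bp, and positions are printed as 1-based. Total signal is a sum over the width of a peak.

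Gene spans, promoters and sequences came from RefSeq tables of GRCm38.p6, whose positions are those of mm10; 22 of 39 Hox genes matched the promoter table. A gene was called when a peak touched, by at least 1 bp, the 1 kb either side of either end. Shares carry exact 95% intervals. Members and lists were chosen with earlier results of these data known. Every member with a peak, every peak in the clusters with 50 kb either side, and up to 6 genes per list, those differing between states first, are named, except that some items are not reported here. The counting was tested on simulated data: 200 of 200 genes given a peak were recovered among 21887. Alternatives were windows of 500 bp and 2.5 kb, gene starts only, the position of highest signal, stronger or equally long lists, and flanks of 0, 50 or 100 kb. The software was pandas 2.3.3, SciPy 1.17.1 and numpy 2.4.6 under Python 3.11.15.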

Additional observations from a re-analysis of the deposited data

How the results depend on the processing

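In every setting tried, all Hox genes called were in the Hoxa cluster, and none was numbered above Hoxa7. With 1 library per group no library could be left out, and no paired analysis was possible because the groups hold 1 sample each. Of 102 alternative values for 21 results, 63 stayed close to the reported value and 39 did not. Close meant within 1.5 times a count or, for covered shares, within the exact 95% interval of the share counted in 50 bp steps. That interval treats the steps as independent although few peaks hold them. It is therefore too narrow to measure how stable a covered share is. The 39 values follow. With only the 50% of peaks highest in total signal, CHD4 lay at 0 Hox genes in each state and H3K4me3 at 3 in neurons; 2 Hox genes had H3K4me3 in both states, 1 in neurons only and 2 in proliferating cells only; CHD4 covered 0% of the clusters in each state, and H3K4me3 2.08% and 5.55%; CHD4 peaks numbered 1 in each state and proliferating H3K4me3 peaks 2. With lists of equal length, 1 Hox gene had H3K4me3 in neurons only and 0 had it in proliferating cells only, proliferating H3K4me3 had 2 peaks over 2.08% of the clusters, and p300 had 0 peaks. With 2.5 kb windows, CHD4 lay at 2 Hox genes in proliferating cells, and 2 genes (Hoxa3 and Hoxa7) had H3K4me3 there only. At starts in the promoter table, CHD4 lay at 0 genes in each state and H3K4me3 at 2 in proliferating cells, 1 in neurons and 1 in both. At starts by cluster strand, an alternative chosen after seeing the data, neurons had CHD4 at 1 and H3K4me3 at 3, and 3 had H3K4me3 in both states. By position of highest signal, H3K4me3 lay at 3 in proliferating cells and CHD4 at 1 in neurons. With 50 kb either side, covered shares were 3.72% (H3K4me3) and 0.197% (p300) in proliferating cells, and 0.797% (CHD4) and 3.41% (H3K4me3) in neurons. Without flanks, CHD4 had 1 peak in each state and p300 had 0 in proliferating cells; with 100 kb, p300 had 2 in proliferating cells and 1 in neurons. The cause of these differences was not tested beyond what each setting removes or adds. Depth is unknown, so absence of a peak is not absence of the mark.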

Other observations

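Beyond the 50 kb flank, a second site lay about 96 kb past the Hoxc cluster on the Hoxc4 side, with CHD4 and p300 in both states. The CHD4 peaks were chr15:103133201-103136100 in proliferating cells and chr15:103132851-103136100 in neurons, at the 82.1st and the 81.1st percentile of total signal. The p300 peaks were chr15:103133401-103136200 and chr15:103133251-103136100, at the 51.0th and the 12.8th percentile. No protein-coding gene lay under them. On the other side of a cluster, H3K4me3 lay at Lnpk, 88.3 kb before Hoxd13 in proliferating cells and 88.4 kb in neurons. The nearest peak of any list outside each cluster lay 141 kb away for Hoxa, at Skap2, and 117 kb away on the Hoxb13 side of Hoxb, at Atp5g1.

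Short motifs were searched on both strands of the 250 bases upstream of starts. The bipartite Hox-Pbx motif TGATNNAT was found at 4 of 24 Hox starts (Hoxa2, Hoxb1, Hoxb8 and Hoxd11) and at 6.68% of all 21263 starts. The TATA box TATAAA was found at 4 Hox starts and 11.6% of all, the CCAAT box at 14 and 35.4%, and the E-box CANNTG at 17 and 62.8%. A match is a description of these letters and not a binding site, and none of the genes with a Hox-Pbx match except Hoxa2 carried a peak in any list.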
